A study of Mus musculus with 5 samples.

Results

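Cxcl13 and Cxcr5 are 2 of the 26189 genes counted in single immune cells of the mouse aortic arch, and they were read from the gene columns of those names in the count tables of both genotypes. Cxcl13 was chosen by its low molecule count in macrophages of the pool labelled Saa3-/- in an earlier look at these data, and Cxcr5 as its receptor, so the pool values of Cxcl13 are given as descriptions and no test was run on them. The cells came from female mice that were 12 weeks old at injection, wild-type C57BL/6J or Saa3-/- littermates (C57BL/6N-Saa3tm1.1(KOMP)Vlcg/MbpMmucd in the sample label). All mice of both genotypes had been injected once with an adeno-associated virus that raises plasma cholesterol, its transgene driven by the hAAT promoter, and were then fed a Western diet for 18 weeks. Live CD45+ cells were sorted, given 1 sample tag per genotype, and captured together on a BD Rhapsody cartridge. The number of mice behind each tag is not given in the labels, and the genotype of a tag is given by the names of the count tables. 4 samples of cultured bone marrow-derived macrophages in the same series are not analysed here.

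With 1 pool per genotype there is no replicate, and every interval below is an exact 95% interval of the counting error in these libraries only. After removal of cells with more than 25% mitochondrial molecules, the pool labelled wild-type held 833 cells with a median of 6415 molecules and the pool labelled Saa3-/- held 823 with a median of 4698. Cells were clustered without Cxcl13, Cxcr5 and Saa3, and each of the 23 clusters was named from marker genes, so that "macrophage-like" means a cluster led by macrophage markers. Despite the CD45 gate, 171 smooth muscle cell-like and 152 fibroblast-like cells were among the 1656 kept. The targeted gene Saa3, an acute-phase apolipoprotein, was read as CPM, its molecules scaled by all molecules of the same cells. In macrophage-like cells it had 337 CPM where the label was wild-type and 26.6 CPM where it was Saa3-/-, and in lymphocytes of the T and B cell-like clusters 36.7 and 27.4 CPM. Over all cells it was not lower in the pool labelled Saa3-/-, at 242 against 148 CPM, because 2 fibroblast-like cells of that pool held 1124 of its 1268 Saa3 molecules. Without those 2 cells the pool stood at 27.8 CPM.

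CXCL13 is a small secreted CXC chemokine that draws B cells, and a subset of helper T cells, into the follicles of lymphoid organs by way of its receptor CXCR5. In lymph nodes and spleen it is made mainly by follicular stromal cells under the control of lymphotoxin and the non-canonical NF-kB pathway, and some tissue macrophages, including those of body cavities, also make it. In arteries, both genes are known from the lymphoid aggregates that can form in the outer wall during atherosclerosis. Cxcl13 lies on chromosome 5, from 95956951 to 95961068 on the forward strand of GRCm38, has 1 annotated transcript and overlaps no other gene. Cxcr5, which codes for a G protein-coupled receptor, lies on chromosome 9, from 44511787 to 44561877 on the reverse strand, has 5 annotated transcripts and overlaps 1 gene, Bcl9l, on the opposite strand. Whether the counting used strand is not given in the sources used here, so Cxcr5 counts may include molecules of Bcl9l. No 50-base stretch of either gene's transcripts was shared with another gene.

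Only the Cxcl13 promoter is shown, because the promoter set used here held no entry for Cxcr5. It runs from 250 bases before to 50 bases after the RefSeq start (GRCm38.p6, chr5:95956689-95956988, forward strand), with 2 motifs found by a search of both strands in capitals, TATAAA and the kappaB-type letters GGGAGATTT.
Cxcl13: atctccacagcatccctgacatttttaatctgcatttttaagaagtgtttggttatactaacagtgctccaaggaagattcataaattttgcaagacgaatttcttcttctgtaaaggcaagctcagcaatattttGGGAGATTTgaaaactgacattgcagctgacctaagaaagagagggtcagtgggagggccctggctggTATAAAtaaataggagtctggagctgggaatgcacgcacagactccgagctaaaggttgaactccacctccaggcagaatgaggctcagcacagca
TATAAA began at position -46 relative to the start and occurred in 13.6% of 32851 mouse promoters of the same length. GGGAGATTT began at position -114 and occurred in 0.317% of them. These matches describe the letters of the window and were not tested as binding sites.

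Cxcl13 was a macrophage gene in these cells, and nearly all of it was in the pool labelled wild-type. That pool held 2344 Cxcl13 molecules in 133 of 833 cells, and the pool labelled Saa3-/- held 107 in 69 of 823 cells. Macrophage-like cells carried 2090 of the 2344 molecules (89.2%) in the first and 60 of the 107 (56.1%) in the second. As a level, this was 878 CPM (841 to 917) in 202 macrophage-like cells of the pool labelled wild-type and 45.6 CPM (34.8 to 58.7) in 153 of the pool labelled Saa3-/-. T and B cell-like cells, which are not known to make Cxcl13 in mouse, gave the background of free RNA: 10.3 CPM (4.72 to 19.6) in the pool labelled wild-type and 12.2 CPM (6.29 to 21.3) in the pool labelled Saa3-/-, with never more than 1 molecule in a cell. The 2 background levels overlap in their counting error. The 2 macrophage levels do not, but Cxcl13 was chosen for its low count in these cells, so this supports nothing further. Counting error also leaves out the spread between cells. Without the 5 cells of each pool highest in Cxcl13, 878 CPM became 462 and 45.6 CPM became 21.8.

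**Figure D1:**
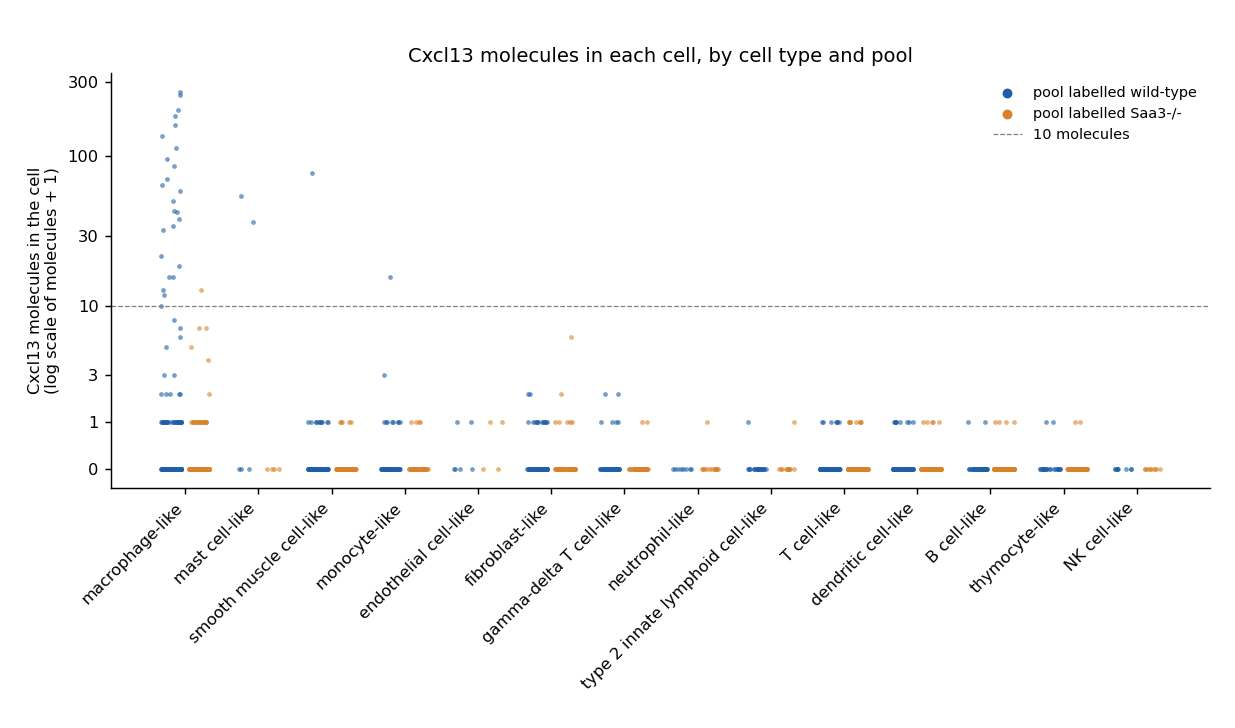
Cxcl13 molecules in each of the 1656 cells, by cell type and pool, on a log scale of molecules + 1 with points spread sideways. Of the 30 cells at or above the dashed line of 10 molecules, 26 were macrophage-like and 29 came from the pool labelled wild-type.

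Outside the macrophage-like cells the pool labelled Saa3-/- held 47 Cxcl13 molecules where 47.7 would be counted at the rate of its own T and B cell-like cells. Both numbers include 12 from those T and B cell-like cells themselves, so part of the match was fixed in advance. The pool labelled wild-type held 254 where 50.6 would be counted, both including 9 from its T and B cell-like cells. Its gamma-delta T cell-like cells had 8 molecules where 2.69 would be counted, or 30.7 CPM (13.3 to 60.5), with at most 2 in a cell, against 9.76 CPM in the other pool. In the pool labelled Saa3-/- the fibroblast-like cells, the stromal type nearest to the follicular cells of lymphoid organs, had 17.6 CPM (9.37 to 30.1), and those of the pool labelled wild-type had 16.9 CPM (9.64 to 27.4). Of the 13 molecules of the pool labelled Saa3-/-, 6 were in 1 cell, which also held 799 Saa3 molecules. These fibroblast levels lay close to the background. Dendritic cell-like cells stood at 8.56 and 11.5 CPM and B cell-like cells at 9.79 and 8.66 CPM, in the pools labelled Saa3-/- and wild-type. Monocyte-like cells of the pool labelled wild-type had 27 molecules (36.8 CPM), 16 of them in 1 cell, against 4 molecules (13.6 CPM) in the other pool. NK cell-like cells had none in either pool, but with 18 cells the floor of 3 molecules is 31.3 CPM. Dendritic and NK cell-like cells thus showed no Cxcl13 above the background at this depth, and B cell-like cells are part of that background.

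In 2 further cell types the level came from very few cells, and those cells also carried macrophage RNA. Of the 88 molecules that smooth muscle cell-like cells held where the label was wild-type, 77 were in 1 cell. That cell held 103 molecules of the resident-macrophage genes Lyve1, Folr2, F13a1 and Cd163 together, while the other 170 cells of its type in both pools held at most 29. Its 277 molecules of the macrophage markers compare with a median of 7 and a highest value of 327 in those 170. Among the 5 mast cell-like cells labelled wild-type, 2 held 55 and 37 Cxcl13 molecules. They held 292 and 467 molecules of the macrophage markers, against 4 to 74 in the 7 other mast cell-like cells of both pools. 11 putative cells had been called multiplets from their tags before deposit, and tags cannot mark doublets within a pool. Whether these 3 cells are doublets was not tested.

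Within the macrophage-like cells of the pool labelled wild-type, the Cxcl13 level was highest in the resident-type cluster. That type is marked by the hyaluronan receptor Lyve1 and the transglutaminase subunit F13a1. The 4 macrophage-like clusters were led by Lyve1 and F13a1, by Adgre1 and the C1q genes, by the interferon-induced Ifit2 and Mx1, and by the lipid-associated genes Gpnmb and Mmp12. Under the label wild-type, the Lyve1/F13a1 cluster held 1456 molecules in 29 of its 50 cells, or 2144 CPM (2035 to 2257). The Ifit2/Mx1 cluster had 226 molecules in 7 of 20 cells (936 CPM), of which 159 and 59 were in 2 cells. The Adgre1/C1q cluster had 401 in 23 of 97 cells (405 CPM, 366 to 446). The Gpnmb/Mmp12 cluster had 7 molecules in 35 cells (14.96 CPM, 6.01 to 30.8), never more than 1 in a cell. The lipid-associated macrophages therefore stood within the counting error of the background, and the other clusters at or above 405 CPM. Cells with 10 or more Cxcl13 molecules numbered 13 in the Lyve1/F13a1 cluster, 10 in the Adgre1/C1q cluster and 2 in the Ifit2/Mx1 cluster. High cells were thus not confined to the resident-type cluster.

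The pool labelled Saa3-/- held the same 4 clusters in other proportions, with 28, 78, 1 and 46 cells in the order above. Its Lyve1/F13a1 cluster had 7 Cxcl13 molecules, 5 in 1 cell and 1 in each of 2 others, and none in 25 cells, giving 33.4 CPM (13.4 to 68.7). Its Adgre1/C1q cluster had 44 molecules in 16 cells, the highest with 13, 7, 7 and 4, giving 82.7 CPM (60.1 to 111). At the T and B cell-like rate that cluster would hold 6.48 molecules. The Gpnmb/Mmp12 cluster had 9 molecules in 46 cells (16.2 CPM), and the 1 cell with high Ifit2 and Mx1 had none. The Adgre1/C1q cluster held 41.1% of all 107 Cxcl13 molecules in this pool. By cluster, most of the Cxcl13 in macrophage-like cells of this pool (44 of 60 molecules) was thus in the Adgre1/C1q cells. By the summed molecules of Lyve1, Folr2, F13a1 and Cd163 it was not outside the resident cells, since cells with 10 or more of these molecules held 41 of the 60 Cxcl13 molecules (111 CPM) and those under 10 held 19 (20.1 CPM). At 20 or more molecules the level was 93.7 CPM and below it 32.1 CPM, so where the Cxcl13 of this pool lies depends on how resident cells are bounded.

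Set as a ratio, Cxcl13 in macrophage-like cells was 19.2-fold lower in the pool labelled Saa3-/-, a log2 ratio of -4.27 (-4.66 to -3.90). Of 7634 genes with at least 50 molecules in these cells, 1.18% lay past 2-fold lower and 0.969% past 2-fold higher. Cxcl13 had the 4th lowest ratio, after the immunoglobulin genes Igkv3-2 and Iglv1 and the plasma cell gene Jchain. In the Lyve1/F13a1 cluster the log2 ratio was -6.01 (-7.32 to -4.96), the second lowest of 3051 genes, of which 2.03% lay past 2-fold lower and 2.49% past 2-fold higher. Because the gene was chosen for this difference, its rank supports nothing further. Other lists moved with the pools in this cluster: 4 of 9 dissociation-stress genes lay past 2-fold higher in the pool labelled Saa3-/- and none below 0, with a median of 0.84 beside 0.11 over all genes, and 3 of 10 inflammatory genes lay past 2-fold higher and none lower. Over all macrophage-like cells the stress genes had a median of 0.08, with none of 9 past 2-fold. Their part in the Cxcl13 ratio was not tested. With resident cells taken instead as macrophage-like cells with 20 or more molecules of Lyve1, Folr2, F13a1 and Cd163, a rule added after the values were seen, the log2 ratio was -4.24. With Cxcl13, Cxcr5 and Saa3 allowed among the clustering genes it was -4.20.

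**Figure D2:**
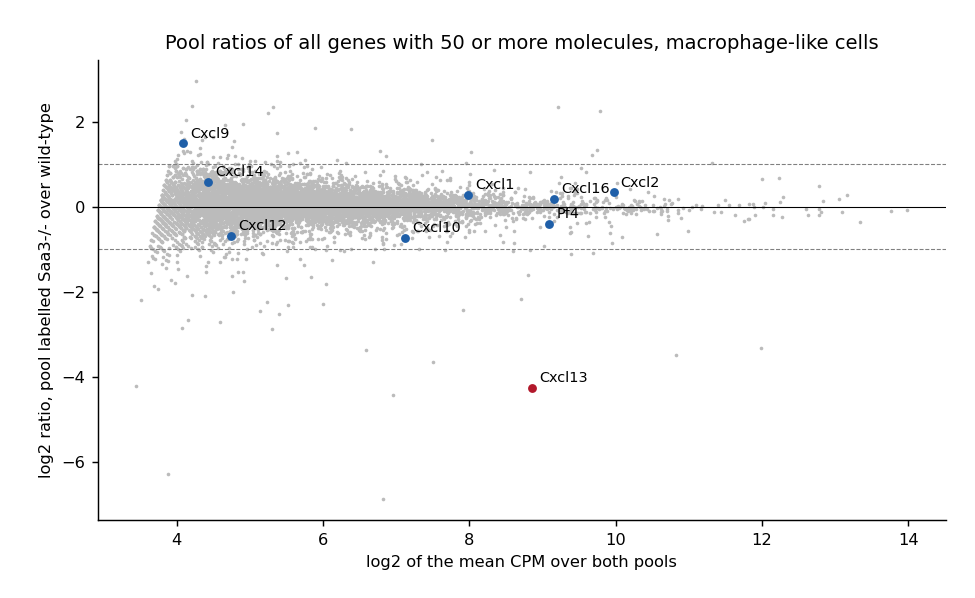
Each point is 1 of 7634 genes in macrophage-like cells, with the log2 of its mean CPM over both pools on the x axis and the log2 ratio of its CPM on the y axis, negative where the pool labelled Saa3-/- is lower. Dashed lines mark 2-fold. Cxcl13 (red) lies at -4.26 with a pseudocount of 0.5 molecules, and the other CXC chemokines named (blue) lie between -0.73 and 1.51.

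The other CXC chemokines of macrophages are given beside Cxcl13, which was itself chosen for its low ratio. Of 10 genes of that list with at least 20 molecules, Cxcl13 alone lay past 2-fold lower, and Cxcl9 alone past 2-fold higher, with 33 molecules against 21 (log2 1.51, 0.68 to 2.37). The neutrophil-attracting Cxcl2 had 1478 molecules against 2102 (log2 0.35) and Cxcl1 364 against 540 (0.29). The membrane-bound Cxcl16 stood at 0.19, the interferon-induced Cxcl10 at -0.73 and the platelet factor Pf4, also a resident-macrophage gene, at -0.40. The list's median was 0.19, beside 0.04 for all genes with at least 20 molecules.

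Genes of the pathway that drives Cxcl13 in lymphoid organs lay within 2-fold, all but 1 of those with at least 20 molecules. Of 12 genes of lymphotoxin and non-canonical NF-kB signalling, 1 lay past 2-fold lower, Ltb with 8 against 31 molecules (-1.10, -2.43 to 0.05), and none past 2-fold higher, with a median of 0.02. The lymphotoxin receptor Ltbr stood at 0.21 (-0.26 to 0.66), the kinase Map3k14 at 0.11, Nfkb2 at -0.32 and its partner Relb at -0.32. Of 7 myeloid genes that help B cells, none lay past 2-fold in either direction. Tnfsf13b, the B cell survival factor BAFF, was at 0.04 (-0.43 to 0.50), and the costimulatory receptor Cd40 at -0.79 (-1.33 to -0.29).

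Other macrophage programmes also differed between the pools alongside Cxcl13. Of 12 interferon-response genes 8 lay past 2-fold lower and 1 past 2-fold higher, with a median log2 ratio of -1.22, and the cluster led by these genes had 20 cells against 1. Of 11 lipid-laden macrophage genes 5 lay past 2-fold higher and none lower, with a median of 0.93. Of 13 resident-macrophage genes over the same cells 2 lay past 2-fold lower and 1 past 2-fold higher. Among these 13, 10 were below 0, and the median was -0.41 beside 0.04 over all genes. The share of macrophage-like cells in the Lyve1/F13a1 cluster was 24.8% (18.96 to 31.3) in the pool labelled wild-type and 18.3% (12.5 to 25.4) in the other. Within the Lyve1/F13a1 cluster, 7 interferon genes had at least 20 molecules, of which none lay past 2-fold lower and 1 past 2-fold higher. Without the interferon-led cluster, an alternative added after the values were seen, the Cxcl13 ratio over the remaining macrophage-like cells was a log2 of -4.24. Immunoglobulin RNA also differed, since Ighm had 7960 molecules in macrophage-like cells of the pool labelled wild-type against 394. Of those 7960, 89.0% were in the 5 highest cells, so few cells made this difference. Of its 25 macrophage-like cells with 10 or more Cxcl13 molecules, 1 held 1375 Ighm molecules. The part of these genes in the Cxcl13 difference was not tested.

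The resident-macrophage genes themselves were present in both pools, which the choice of cluster fixed in advance. The Lyve1/F13a1 cluster was taken as the macrophage-like cluster highest in this gene list, while Cxcl13 was left out of the clustering. The values below therefore cannot show whether resident cells were otherwise alike in both pools. Within the Lyve1/F13a1 cluster Lyve1 had 735 CPM in the pool labelled wild-type and 1177 in the pool labelled Saa3-/-. The folate receptor Folr2 had 981 and 1020 CPM, F13a1 1564 and 2097, and the haemoglobin scavenger receptor Cd163 567 and 1106. The complement gene C1qa was at 2203 and 2197 CPM. Lyve1, F13a1 and Cd163 were thus higher where the label was Saa3-/-, and Folr2 and C1qa close to equal. Cxcl13 stood at 33.4 CPM there. That Cxcl13 level was 71.7 CPM without cells holding 2 lymphoid markers, 93.8 with the 3 genes in the clustering and 93.7 by the 4-gene rule, beside a background of 12.2 CPM. Of the 13 resident genes, 1 lay past 2-fold lower in this cluster, the complement receptor Vsig4 with 2 against 68 molecules (log2 -3.39, -6.47 to -1.48). The chemokine gene Ccl8 stood at -0.72 (-0.94 to -0.51), with 996 against 1645 CPM. Ccl24 was past 2-fold higher, with 42 against 54 molecules (200 against 79.5 CPM).

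The cells of the Lyve1/F13a1 cluster differed in depth, with a median of 10662 molecules in the pool labelled wild-type and 6706 in the other. Thinned to 2000 molecules per cell, Cxcl13 was found in 18.2% of macrophage-like cells of the pool labelled wild-type and 6.36% of the pool labelled Saa3-/-, where the unthinned shares were 32.7% (26.3 to 39.6) and 18.3% (12.5 to 25.4). In the Lyve1/F13a1 cluster the unthinned shares were 58% (43.2 to 71.8) and 10.7% (2.27 to 28.2). In T and B cell-like cells they were 5.33% of cells with a median of 4070 molecules and 4.86% of cells with a median of 3668. Thinned in the same way, the shares were 35.2% and 5.16% in the Lyve1/F13a1 cluster and 1.95% and 2.51% in T and B cell-like cells, in the same order of pools. The part of depth in the difference between pools was not tested.

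Among macrophage-like cells of the pool labelled wild-type Cxcl13 was held by a small number of cells at high levels. 136 of 202 cells had no molecule, 30 had 1, 11 had 2 to 9 and 25 had 10 or more. Those 25 cells, 12.4% (8.17 to 17.7), held 2018 of the 2090 molecules (96.6%). The 5 highest held 49.9% and the 10 highest 73.7%. Among 356 genes with at least 1000 molecules in the same cells, the share in the 5 highest cells was greater for 5 genes, Igkc, Ighm, Spp1, Retnla and Ccl8, and the median gene had 11.2%. Of 153 cells in the pool labelled Saa3-/-, 125 had none, 22 had 1, 5 had 2 to 9 and 1 had 13, so that 0.654% (0.0165 to 3.59) reached 10 molecules.

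The 7 cells with 100 or more held 259, 245, 198, 181, 159, 134 and 113 Cxcl13 molecules, of which 6 were in the Lyve1/F13a1 cluster and 1 in the Ifit2/Mx1 cluster. In the cell with 198, Cxcl13 was 2.85% of all its 6958 molecules. In the cell with 259 it was 0.914% of 28331, and this cell also held 138 Saa3 molecules. Only 2 of the 11 cells of the pool labelled wild-type with 10 or more Saa3 molecules also had 10 or more of Cxcl13, the other having 244 Saa3 and 59 Cxcl13 molecules. Most cells high in Cxcl13 therefore held little or no Saa3 RNA. Over the 25 high cells Saa3 stood at 1086 CPM against 167 CPM in cells without Cxcl13, but it was found in 6 of the 25.

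**Figure D3:**
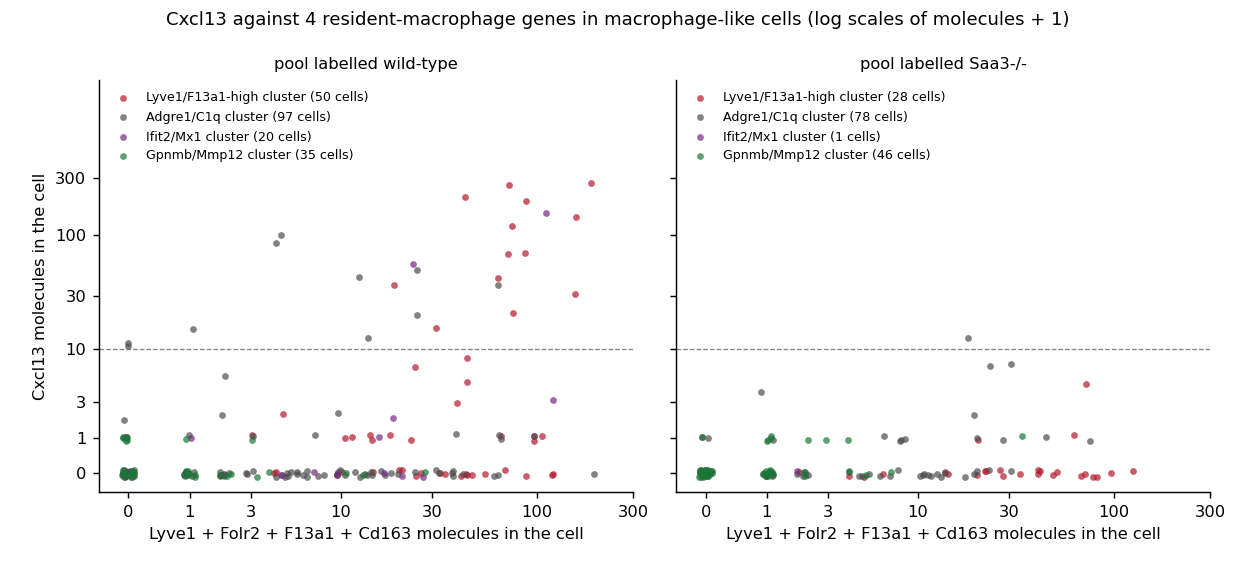
Cxcl13 molecules against the summed molecules of Lyve1, Folr2, F13a1 and Cd163 in each macrophage-like cell, 1 panel per pool, log scales of molecules + 1 with a small random shift. Colours give the 4 clusters and the dashed line marks 10 Cxcl13 molecules. Under the label wild-type 17 of 61 cells with 20 or more molecules of the 4 genes reach that line, and in the pool labelled Saa3-/- none of 31 does.

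Sorted by the 4 resident genes alone, the share of cells high in Cxcl13 was greater where they were higher, in the pool labelled wild-type. Of cells with 50 or more molecules of the 4 genes 12 of 28 (42.9%, 24.5 to 62.8) had 10 or more Cxcl13 molecules, and of cells under 10 molecules 5 of 114 (4.39%, 1.44 to 9.94). At 20 or more it was 17 of 61 (27.9%, 17.1 to 40.8). Depth was greater along the same axis, with a median of 19678 molecules in the 28 cells and 7822 in the 114, and its part in the share was not tested. In the pool labelled Saa3-/-, none of 31 cells with 20 or more molecules of the 4 genes reached 10 Cxcl13 molecules, which allows a share of up to 11.2%. Most of the 61 cells rich in resident genes in the pool labelled wild-type also stood below 10 Cxcl13 molecules.

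The 25 cells with 10 or more Cxcl13 molecules were set against the 136 with none, both from the pool labelled wild-type. The lowest of the 25 held 10 and 12 molecules, and the next cell below them held 8. Their median depth was 12787 molecules against 8131 and their mean mitochondrial share 5.04% against 5.62%. Of 5209 genes with at least 50 molecules over both sets, 1.61% lay past 2-fold higher in the high cells and 5.86% past 2-fold lower. Of 13 resident-macrophage genes 10 lay past 2-fold higher and none lower, with a median log2 ratio of 1.47 beside -0.07 over all genes. Timd4, a receptor for phosphatidylserine on dying cells, had 150 CPM in the high cells and 21.3 in the others (2.81). Lyve1 had 889 against 151 CPM (2.56), Ccl8 1449 against 366 (1.98) and Cd163 529 against 192 (1.47). Mrc1, found in 111 of the 136 cells without Cxcl13, stood at 0.55.

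Other macrophage programmes lay the other way. Of 11 lipid-laden genes 7 lay past 2-fold lower in the high cells and none higher, with a median of -1.25. Spp1, which codes for osteopontin, had 13.9 CPM against 792 (-5.69), and the membrane glycoprotein Gpnmb 33.4 against 286 (-3.04). Over all macrophage-like cells of this pool, 72.5% of Spp1 molecules were in the 5 highest cells. Of 11 inflammatory genes 4 lay past 2-fold lower, among them Tnf (-2.39) and Cxcl2 (-1.35), and none higher. Of 11 interferon genes 4 lay past 2-fold lower, among them Cxcl10 (-2.16). Of 12 lymphotoxin and NF-kB genes 3 lay past 2-fold lower and none higher, with Ltbr at -1.10 and Nfkb2 at 0.11. The dissociation-stress genes had a median of -0.32, with 1 of 9 past 2-fold lower. Several genes of these lists stood close in both sets, among them Ccl3 (396 against 367 CPM), Nfkbia (708 against 883), the interferon gene Oasl2 (128 against 124) and Ctsb (5223 against 5881). Of the 25 high cells, 2 lay in the Ifit2/Mx1 cluster. These genes were named after their values were seen.

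**Figure D4:**
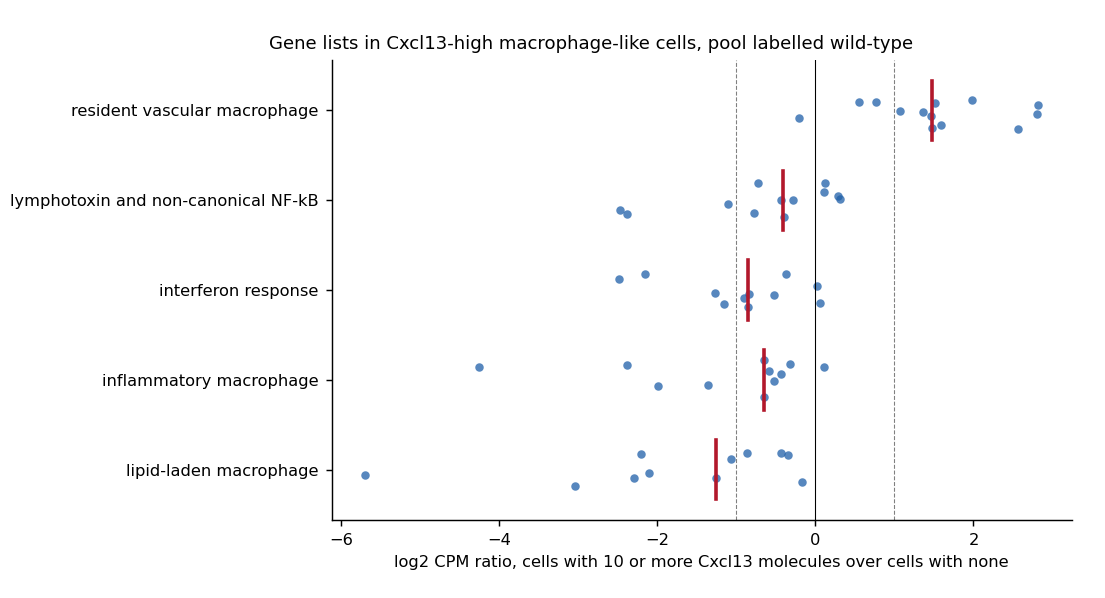
log2 CPM ratio of each listed gene between 25 macrophage-like cells with 10 or more Cxcl13 molecules and 136 with none, in the pool labelled wild-type. Each point is a gene with at least 20 molecules, spread vertically, red bars are list medians and dashed lines mark 2-fold. The resident list has its median at 1.47 and the lipid-laden list at -1.25.

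Cell by cell, the correlation of Cxcl13 with single genes was moderate at most. Over the 202 macrophage-like cells of the pool labelled wild-type and 8183 genes, the highest Spearman coefficients were Cd163 at 0.42, Cd55 at 0.37, Cmah at 0.36, Slc13a3 at 0.35, Ccl8 and Timd4 at 0.33, B2m at 0.32, Fcgrt and Cbr2 at 0.31 and Folr2 at 0.30. The cells share 1 library and Cxcl13 itself had 0.15 with the molecules per cell. In the 153 macrophage-like cells of the pool labelled Saa3-/- the coefficient was 0.25 for Cd163, 0.21 for Folr2 and 0.19 for Ccl8, but 8.5e-05 for Cd55, -0.10 for Cmah and -0.04 for Slc13a3. The lowest coefficients were weak, with the cholesterol transporter gene Abcg1 at -0.24, the kinase Pim1 at -0.23, Nfkb1 at -0.22, Creb5 at -0.21 and Spty2d1 at -0.20. By ratio, the genes furthest above the cells without Cxcl13 were Slpi (5.02, found in 7 of 25 cells), Slc13a3 (3.40, 12 of 25), Vsig4 (2.82), Timd4 (2.81), the complement gene C6 (2.59), Lyve1 (2.56), Cd209g (2.36), P2ry10 (2.25), Ltc4s (2.11) and Cd55 (2.06). Cd55, a brake on complement, was found in 20 of 25 high cells and 33 of 136 without Cxcl13. Across 19 clusters of at least 20 cells the patterns most like that of Cxcl13 were those of Vsig4 (Pearson r 0.97), Siglec1 (0.96), Pla2g2d (0.94), Chp2 (0.93) and Folr2 (0.91).

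RNA of lymphoid marker genes was found in macrophage-like cells with and without Cxcl13. The markers were those of B, plasma and T cells together, and whether macrophages express some of them was not tested. At least 2 lymphoid markers at 3 or more molecules each were held by 11 of the 25 high cells (44%), 61 of 177 other cells (34.5%) in the pool labelled wild-type and 35 of 152 (23.0%) in the pool labelled Saa3-/- under 10 Cxcl13 molecules. The B cell receptor component Cd79a reached 3 molecules in 5 of the 25 high cells, 16 of the 177 and 14 of the 152. Without all cells holding 2 lymphoid markers the pool labelled wild-type stood at 954 CPM Cxcl13 over 130 macrophage-like cells, and at 4037 CPM in the 22 left in the Lyve1/F13a1 cluster. Over the macrophage-like cells without them the log2 ratio of the pools was -4.07. The removed cells included 11 of the 25 high cells. In the pool labelled wild-type the 5 highest macrophage-like cells then held 69.8% of the Cxcl13 molecules, beside 49.9% before. The part of lymphoid RNA in the Cxcl13 level was not tested.

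Cxcr5, the receptor, was highest in B cells here, with a lower level in T cells. It was sparse, with 83 molecules in 60 cells of the pool labelled wild-type and 99 in 66 cells of the pool labelled Saa3-/-. B cell-like cells held 38 and 58 of these. Their level was 165 CPM (116 to 226) over 47 cells of the pool labelled wild-type and 142 CPM (108 to 183) over 107 of the pool labelled Saa3-/-. The intervals overlap, and the log2 ratio was -0.21 (-0.83 to 0.42). Of 2427 genes compared in B cell-like cells, 2.02% lay past 2-fold lower and 2.31% past 2-fold higher. Where the label was wild-type, 24 B cell-like cells had no Cxcr5 molecule, 17 had 1, 4 had 2 and 2 had 3 or more, 1 of them with 10. In the other pool 67 had none, 28 had 1, 7 had 2 and 5 had 3 or 4. The 5 highest cells held 50% of the molecules where the label was wild-type and 27.6% where it was Saa3-/-. The sign of the ratio depended on the clustering, since at Leiden resolution 2 it was 0.57, with 60 and 115 B cell-like cells.

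**Figure D5:**
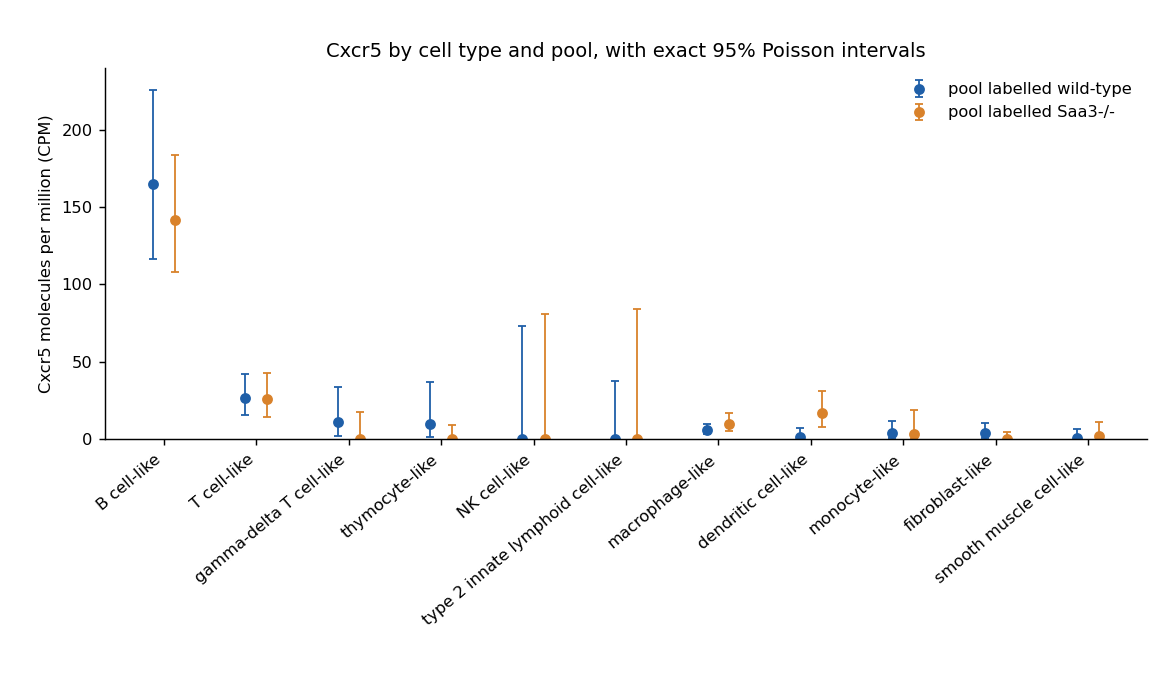
Cxcr5 level in CPM by cell type, 1 point per pool with the exact 95% Poisson interval of its molecules. B cell-like cells lie at 165 and 142 CPM, T cell-like cells at 26.5 and 26.0, and the NK and type 2 innate lymphoid cell-like cells hold no molecule, with wide upper limits.

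The cell type that carries most of the receptor took different shares of the pools. B cell-like cells were 47 of 833 cells (4.17 to 7.43%) where the label was wild-type and 107 of 823 (10.8 to 15.5%) where it was Saa3-/-. Cxcr5 over all cells was 11.4 CPM (9.07 to 14.1) and 18.9 CPM (15.4 to 23.0). Thymocyte-like cells also had a larger share in the pool labelled Saa3-/-, 77 of 823 cells against 25 of 833, and their part in the B cell-like share was not tested. The Cxcl13-rich pool was thus the pool with fewer B cell-like cells.

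Genes that mark B cell subsets were read beside Cxcr5. Of 8 maturation and germinal-centre genes, 1 lay past 2-fold higher in the pool labelled Saa3-/- and none lower, with a median log2 ratio of 0.40 beside 0.04 over all genes. The low-affinity IgE receptor gene Fcer2a had 153 against 37 molecules (1.22, 0.70 to 1.78), Ighd 389 against 122 (0.85) and the complement receptor Cr2 143 against 49 (0.72). These 3 genes are expressed by mature follicular B cells. Of 7 B-1 and innate-like genes 2 lay past 2-fold lower, Plscr1 with 10 against 31 molecules (-2.46) and Zbtb32 with 9 against 25 (-2.30), and 1 higher, the egress receptor S1pr1 (1.37), with a list median of -0.55. Macrophage genes also lay lower in these B cell-like cells, since 6 of 7 lipid-laden genes were below 0, with a median of -0.55, and 6 of 7 resident genes, 2 of them past 2-fold, with a median of -0.26. Their part in the B-1 values was not tested.

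Among T cell-like cells most Cxcr5 molecules were in the cells led by Ccl5 and Gzmk. All T cell-like cells held 17 molecules in 13 of 122 cells (26.5 CPM, 15.4 to 42.4) of the pool labelled wild-type and 15 in 8 of 140 (26.0 CPM, 14.5 to 42.9) of the pool labelled Saa3-/-. The Ccl5/Gzmk cluster held 15 of the 17 and 14 of the 15, or 32.3 CPM (18.1 to 53.3) and 44.1 CPM (24.1 to 74.1). The naive-type cluster led by Lef1 and Ccr7 held 0 molecules in 29 cells and 1 in 65. The cluster with the regulatory T cell gene Foxp3 held 2 molecules in its 18 cells of the pool labelled wild-type (26.0 CPM, 3.15 to 94.1), a level its few cells do not separate from that of the Ccl5/Gzmk cluster, and 0 in its 1 cell of the other. Stromal cells, which should lack the receptor, had 2.24 CPM (0.90 to 4.62) over both pools, so the Ccl5/Gzmk cells stood above that background in each pool.

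The 21 T cell-like cells with Cxcr5 held Cd8a more often than Cd4. Cd8a, the coreceptor of cytotoxic T cells, was found in 14 of them (476 CPM) and Cd4 in 4 (114 CPM), while the 241 T cell-like cells without Cxcr5 had 290 and 278 CPM. Ccl5 was found in 17 of 21 and 137 of 241, but its level was not higher, at 2445 against 2613 CPM, so shares of cells with a gene are read here beside the CPM. Bcl6, the transcription factor of follicular helper cells, was found in 7 of 21 and 38 of 241, at 56.9 and 52.9 CPM. Pdcd1 was found in 3 and Icos in 9 of the 21, and their CPM were also close to those of the other cells, at 64.0 and 58.4 for Pdcd1 and 277 and 247 for Icos. Sh2d1a, the adaptor of help signals, was found in 10 of 21 and 54 of 241 cells (178 and 85.3 CPM). Il21, the cytokine of follicular helper cells, had no molecule in any T cell-like cell, and Cd40lg none in the 21 and 28 in the others. With 21 cells these values describe the cells and were not tested. Cd3e was found in 20 of the 21. Cd79a stood at 21.3 CPM in them, from 3 molecules, and at 20.4 CPM in the others, from 22 molecules. Whether their Cxcr5 came with B cell RNA was not tested.

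Other lymphocytes held little Cxcr5. Gamma-delta T cell-like cells had 3 molecules in 58 cells of the pool labelled wild-type and 0 in 48 of the other, and thymocyte-like cells 2 in 25 and 0 in 77. NK cell-like and type 2 innate lymphoid cell-like cells had none, at floors of 3 molecules equal to 31.3 and 21.1 CPM over both pools. In macrophage-like cells 27 Cxcr5 molecules were found in 21 cells (7.31 CPM), and 11 of these 21 also held 3 or more Cd79a molecules, against 24 of the 334 macrophage-like cells without Cxcr5. In dendritic cell-like cells of the pool labelled Saa3-/-, 10 molecules were found in 6 cells, the highest with 4 Cxcr5, 11 Cd79a and 10 Ms4a1 molecules. Over both pools 2 of the 7 dendritic cell-like cells with Cxcr5 held 3 or more Cd79a molecules, and these 2 held 6 of the 11 Cxcr5 molecules. Cxcr5 in macrophage-like and dendritic cell-like cells thus came in large part with B cell RNA, and its source was not tested.

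Over 678 lymphocyte-like cells of both pools and 8429 genes, the Spearman coefficients with Cxcr5 were among the highest for Scd1 (0.42), Cd79a (0.40), Bank1 (0.39), H2-Ob and Cd22 (0.38), Pax5 and Ms4a1 (0.37), Ighd (0.36) and H2-DMb2 (0.35). 88 of these cells had a Cxcr5 molecule, and the coefficients were alike in both pools, for example 0.40 and 0.45 for Scd1 in the pools labelled wild-type and Saa3-/-. Across 19 clusters the most similar patterns were those of Gm30211 (Pearson r 0.93), Tmem163 (0.92), the BAFF receptor gene Tnfrsf13c (0.91), Pax5 (0.88) and Fcer2a (0.87).

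The partner genes of lymphoid tissue were laid out over the same cell types, with both pools summed. Ccl19, a ligand of the receptor Ccr7, was a fibroblast gene, with 131 of its 175 molecules in fibroblast-like cells (77.6 CPM), and Ccl21a had 2 molecules in all cells. Ccr7 was at 230 CPM in B cell-like, 188 in T cell-like and 196 in dendritic cell-like cells. Cxcl12, the other homeostatic CXC chemokine, was at 958 CPM in fibroblast-like and 28.7 in macrophage-like cells, the reverse of Cxcl13. Its receptor Cxcr4 was at 277 CPM in B cell-like and 246 in T cell-like cells. So Cxcl13 was the only 1 of these 4 chemokines with its highest summed molecules in macrophage-like cells.

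The lymphotoxin genes were found mostly in lymphocytes, apart from Ltb in neutrophil-like cells, and their receptor in myeloid and stromal cells. Lta had 42 molecules in all, with 12 in gamma-delta T cell-like (25.8 CPM) and 10 in B cell-like cells (15.6 CPM). Ltb had its highest level in the 23 neutrophil-like cells, 259 CPM (154 to 410, 18 molecules in 11 cells). It was at 230 CPM in gamma-delta T cell-like, 124 in B cell-like and 110 in T cell-like cells. Ltbr was at 46.6 CPM in macrophage-like, 56.3 in fibroblast-like and 4.74 in all lymphocyte-like cells. In the Lyve1/F13a1 cluster Ltbr was at 37.1 CPM (25.6 to 52.1), and in the other macrophage-like cells together at 49.5 CPM (41.6 to 58.5). These intervals overlap. Tnfsf13b was at 69.9 CPM in fibroblast-like and 46.3 in macrophage-like cells, and B cell-like cells held none.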

How the data were processed

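The deposited counts are molecules per gene and cell, made with the BD Rhapsody WTA Analysis Pipeline 1.11.1 on GRCm38 with PhiX and GENCODE M 19, per the file headers. Intronic reads were not excluded, refined cell calling was on and reads were not subsampled, per the file headers. The submitters' processing notes also name mm10, R 4.3.1 and Seurat 4.3.0. Of 2401 putative cells, 11 were tag multiplets and 647 undetermined, and 1743 stand in the 2 count tables, with no cell index in both.

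Cells were kept from 200 genes upward and up to 25% mitochondrial molecules (56 and 31 left out) and clustered with scanpy 1.11.5 and leidenalg 0.10.2 (2000 variable genes, 30 components, 15 neighbours, resolution 1). A cluster was named where at least 3 markers of a type were in 20% or more of its cells. No doublet caller was run. Counts were summed per pool and type. Ratios were taken for genes with at least 50 molecules (20 for listed genes), with a mark at 2-fold. A pseudocount of 0.5 molecules was used for ranks, list counts, list medians and the ratios of high cells over cells without Cxcl13; the pool ratios printed with intervals carry none. Intervals are exact Poisson, Clopper-Pearson or conditional binomial (95%). The scripts (Python 3.11.15, scipy 1.17.1, numpy 2.4.6, matplotlib 3.10.9) were tested on simulated data. The genes named by likeness are the 10 highest and 5 lowest Spearman coefficients, the 10 highest ratios and the 5 most similar cluster patterns. List genes were named by molecules or as partners, and Cd40, Vsig4, Ccl24, Timd4, Plscr1, Zbtb32, S1pr1 and Sh2d1a after their values were seen. The members, lists and rules were chosen with earlier results of these data known. Promoter sequence is from RefSeq (GRCm38.p6), and the set used here held an entry for Cxcl13 and none for Cxcr5. 1 gene that the rule on likeness to Cxcr5 names is not reported here.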

Additional observations from a re-analysis of the deposited data

How the results depend on the processing

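No paired analysis was possible because each genotype is 1 pool and no test was run. Of 136 values under alternative settings 96 moved by less than their counting interval, 39 moved further and 1 reversed. The log2 ratio of Cxcl13 in macrophage-like cells lay between -4.40 and -4.02 in all 12 alternatives. In the Lyve1/F13a1 cluster it went from -6.01 to -4.20 with Cxcl13, Cxcr5 and Saa3 among the clustering genes and to -4.24 with the 4-gene rule. That rule, the removal of cells with 10 or more Saa3 molecules and the removal of the interferon-led cluster were chosen after seeing the data. For the Cxcr5 ratio in B cell-like cells the sign turned at Leiden resolution 2 (0.57 for -0.21), where the pool labelled wild-type had 93.5 CPM for 165.

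The Cxcl13 level of macrophage-like cells in the pool labelled wild-type was 878 CPM. It was 749 CPM under a stricter cell filter (500 genes, 15% mitochondrial), 681 and 783 at Leiden resolutions 0.5 and 2, 736 with the 3 genes in the clustering, 832 thinned, 462 without the 5 highest cells, 954 without cells holding 2 lymphoid markers and 809 without cells high in Saa3. The pool labelled Saa3-/- stood at 45.6 CPM, and at 21.8 without the 5 highest cells. For the Lyve1/F13a1 cluster of the pool labelled wild-type, 2144 CPM became 1788 with all cells, 1834 with the stricter filter, 1789.97 and 2512 at resolutions 0.5 and 2, 1727 with the 3 genes, 2299.65 with equal weight per cell, 971 without the 5 highest cells, 4037 without cells holding 2 lymphoid markers and 1772 by the 4-gene rule. For the pool labelled Saa3-/- 33.4 CPM became 93.8 with the 3 genes, 9.87 without the 5 highest cells, 71.7 without cells holding 2 lymphoid markers and 93.7 by the 4-gene rule.

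The share of macrophage-like cells with Cxcl13 in the pool labelled wild-type, 32.7%, was 18.2% thinned, 25.4% without cells holding 2 lymphoid markers, 15.3% at 3 or more molecules and 12.4% at 10 or more. In the pool labelled Saa3-/- 18.3% became 6.36% thinned, 3.27% at 3 or more and 0.654% at 10 or more. The share of molecules in the 5 highest cells, 49.9%, was 47.6% once those cells were left out, 69.8% without cells holding 2 lymphoid markers and 54.6% without the interferon-led cluster. For Cxcr5 in B cell-like cells 48.9% became 28.6% thinned and 12.8% at 2 or more molecules where the label was wild-type, and 37.4% became 24.8% and 11.2% where it was Saa3-/-. The causes were not tested. Depth limits Cxcr5 most, with 182 molecules in all. The spread between mice is not known, and a few cells set the level of Cxcl13.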
